A study of Mus musculus with 4 samples.

Results

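The genes described here are 10 transcription factor genes of the AP-1 and immediate early group, Fos, Fosb, Fosl1, Fosl2, Jun, Junb, Jund, Atf3, Egr1 and Maff, chosen by name. The deposited table listed 32 of their 70 annotated exons, out of 226463 listed exons of 22835 protein coding, pseudogene and lincRNA genes. The study placed the melanocyte isoform of Mitf, M-Mitf, under a doxycycline (Dox) responsive promoter at the Col1a1 locus of embryonic stem cells that carried the M2rtTA transactivator at ROSA26, and made mouse embryonic fibroblasts (MEFs) from chimeric embryos. The question of the RNA sequencing was how far induced Mitf moves fibroblasts towards melanocytes. Each condition had 1 library, so no difference below has a replicate check and no p-value was computed. The intervals given are 95% exact counting intervals of recovered reads and cover counting error only.

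The 3 libraries analysed are described as the labels and the study give them. Wild-type MEFs at passage 3, with no transgene and no Dox, are called MEF. The MEF column was matched to this library by name only, and a mismatch of its values is given below. Knock-in MEFs at passage 5 without Dox are called Dox (-). The same knock-in MEFs at passage 5 after 6 days of Dox are called Dox (+). Dox (-) and Dox (+) both carried the transactivator and the Mitf transgene, and the embryos came from 1 targeted clone. All 3 cultures grew in DMEM with fetal bovine serum. Chimeric embryos also hold cells of the host, and the study used a fluorescent mark and puromycin to select the knock-in cells. Wild-type cells treated with Dox were not analysed here, so an action of Dox alone and an action of Mitf cannot be told apart. Passage and genotype likewise cannot be told apart between MEF and the knock-in cultures. The primary mouse melanocytes of the study were not analysed here.

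AP-1 is a family of dimers of basic leucine zipper proteins. Jun proteins pair with one another or with Fos proteins, and Atf3 and the small Maf protein Maff belong to neighbouring families that can join or compete with them. Many of these genes are immediate early genes, whose transcripts appear quickly after serum, growth factors, phorbol esters or stress and are short-lived. Egr1 is a zinc finger factor, not a leucine zipper protein, and is induced by the same signals. In fibroblasts AP-1 is known for driving matrix protease genes and entry into the cell cycle.

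Each gene was given the RPKM of its highest exon as its level, RPKM being the reads on an exon divided by its length in kb and by the aligned reads of the library, and a gene was called different when it exceeded 10 RPKM in at least 1 of the libraries compared and differed more than 4-fold. RPKM multiplied by exon length returned whole reads at depths of 45000000 reads in MEF, 45000000 in Dox (-) and 44000000 in Dox (+). A read that reaches only partly into an exon is counted there, so short exons can have raised RPKM. Mitf itself was at 1.52 RPKM in MEF, 30.8 in Dox (-) and 1544 in Dox (+), in the order of the labels. The column named MEF does not hold the values that the study's supplementary gene table lists under MEF, whereas those of Dox (-) and Dox (+) do match, so MEF below means the library labelled MEF. Other features of the libraries also differed. The summed level of 8 macrophage markers was 51.0 RPKM in MEF, 12977 in Dox (-) and 470.0 in Dox (+), with 2, 8 and 4 of the 8 above 10 RPKM and none at 0 in any library. The 8 fibroblast markers summed to 18350, 45433 and 11943 RPKM, with 7, 8 and 8 of them above 10 RPKM. The 8 melanocyte markers summed to 4.43, 14.8 and 264 RPKM, with 0, 0 and 3 of them above 10 RPKM. Most of the Dox (+) sum came from Mlana at 133 RPKM and Tyrp1 at 110 RPKM. From Dox (-) to Dox (+) 7 of the 8 were higher, some only slightly, and 1, Sox10, was lower, at 6.69 and 1.66 RPKM. Coverage along transcripts differed as well. In 83.9% of 10954 genes the ratio of Dox (+) to Dox (-) was lower at the 3′-most than at the 5′-most exon with at least 20 reads in both libraries, by a median of 0.43 on the log2 scale. The same held for 73.9% of 10683 genes between Dox (-) and MEF. In bulk RNA, fewer cells of a type and less RNA per cell cannot be told apart.

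From Dox (-) to Dox (+), Fosl1 was the one factor called. It was higher in Dox (+), while Egr1 was more than 2-fold higher and Fos more than 2-fold lower. For Egr1 this holds for the values as deposited and not after rescaling, as given below. Of all 13307 genes above 10 RPKM in either library, 7.05% were called at 4-fold, 10.8% were more than 2-fold higher and 11.1% more than 2-fold lower. Of the 10 factors, 9 were above 10 RPKM, Fosb being the exception, so that 1 of 9 was called, 2 of 9 were over 2-fold higher and 1 of 9 over 2-fold lower. The median log2 fold change of the 10 factors was 0.36, on the log2(RPKM + 1) scale used for all log2 fold changes here, which understates changes of low genes. Over all genes tested it was 0.23, and 6 of the 10 factors lay above that shift. The group as a whole therefore sat close to the background of the comparison, with members spread on both sides.

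**Figure D1:**
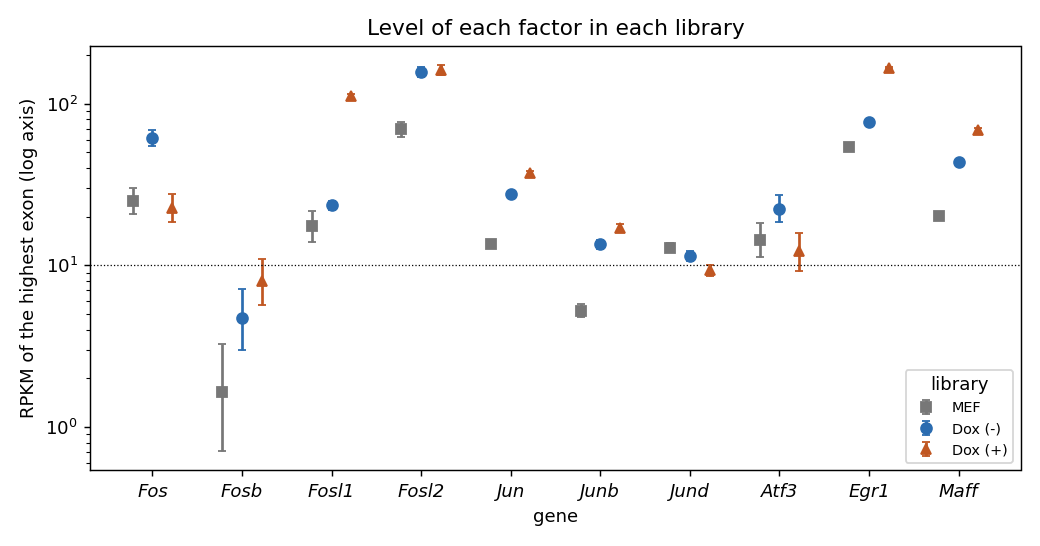
Level of each factor, as the RPKM of its highest exon on a log axis, in MEF (squares), Dox (-) (circles) and Dox (+) (triangles), with 1 library each; bars are 95% counting intervals and the dotted line marks 10 RPKM. Fosl1 stood at 111 RPKM in Dox (+) against 17.5 and 23.5 in the other libraries, Fos and Atf3 peaked in Dox (-), and the order of Fosl2 in Dox (-) and Dox (+) reversed with its exon of most reads or after rescaling.

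The order of the factors by level also differed. In MEF it ran, from the top, Fosl2, Egr1, Fos, Maff, Fosl1, Atf3, Jun, Jund, Junb and Fosb. In Dox (-), Fosl2, Egr1, Fos and Maff kept the first places and Fosl1 was the sixth. In Dox (+), Egr1 at 165 RPKM and Fosl2 at 161 RPKM led, followed by Fosl1, Maff, Jun and then Fos, so Fosl1 stood in the third place and Fos in the sixth. These places rest on the 108 bp exon for Fos and Fosl2 and on longer exons for most others. By the exon with the most reads Fos stood lower, at 9.01 RPKM in MEF, 29.6 in Dox (-) and 8.80 in Dox (+), the seventh, the fourth and the eighth place, and Fosl1 was the second in Dox (+), above Fosl2 at 63.5 RPKM.

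The 4 Fos family genes each have an exon 3 of 108 bp, entirely coding, that carries the basic region through which these proteins contact DNA. These sequences are shown because they let the 4 family members be compared on exons of equal length and matching position. They are from GRCm38 (mm10), 5′ to 3′ on the coding strand, and capitals mark the bases that are the same in all 4 genes.

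Fos, chr12:85475592-85475699, plus strand: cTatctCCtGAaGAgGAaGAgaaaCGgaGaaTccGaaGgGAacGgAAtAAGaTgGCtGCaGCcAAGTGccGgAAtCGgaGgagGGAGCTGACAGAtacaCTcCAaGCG
Fosb, chr7:19306559-19306666, minus strand: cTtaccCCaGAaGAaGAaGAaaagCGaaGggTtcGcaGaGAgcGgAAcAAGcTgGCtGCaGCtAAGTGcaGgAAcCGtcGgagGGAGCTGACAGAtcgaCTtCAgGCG
Fosl1, chr19:5454413-5454520, plus strand: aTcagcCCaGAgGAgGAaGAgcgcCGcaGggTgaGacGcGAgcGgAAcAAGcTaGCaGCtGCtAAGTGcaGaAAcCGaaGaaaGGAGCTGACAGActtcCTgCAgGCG
Fosl2, chr5:32150421-32150528, plus strand: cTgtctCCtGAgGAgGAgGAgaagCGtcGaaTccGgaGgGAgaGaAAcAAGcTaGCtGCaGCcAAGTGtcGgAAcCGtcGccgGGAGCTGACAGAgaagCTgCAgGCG

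Of the 108 positions, 62 (57.4%) were the same in the 4 Fos family genes. Identity between pairs of the family ran from 66.7% for Fosl1 with Fos or Fosl2 to 77.8% for Fos with Fosl2, so no pair shared the whole exon.

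On this exon the make-up of the Fos family changed between the libraries. Fos gave 22.1% (18.7% to 25.8%) of the 552 family reads in MEF, 25.2% (22.8% to 27.8%) of 1186 in Dox (-) and 7.57% (6.25% to 9.07%) of 1426 in Dox (+), with exact binomial intervals. Fosl1 gave 15.4% (12.5% to 18.7%), 8.35% (6.84% to 10.1%) and 36.0% (33.5% to 38.6%) in the same order. Fos thus exceeded Fosl1 in Dox (-), and Fosl1 exceeded Fos in Dox (+), with intervals far apart. Fosl2 remained the largest contributor in all 3 libraries, at 61.1%, 64.5% and 53.7%. Fosb stayed the smallest, at 1.45%, 1.94% and 2.66%.

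**Figure D2:**
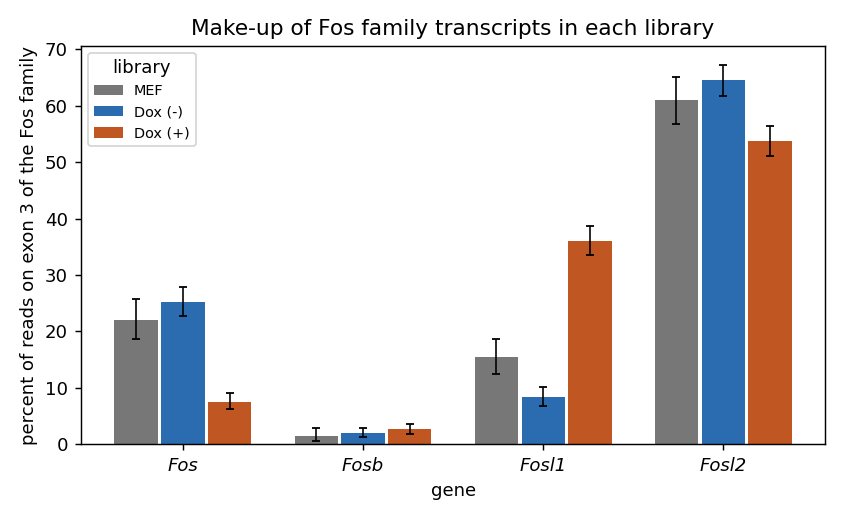
Percent of the reads on exon 3 of the Fos family that fell on each gene, in each library, with exact 95% binomial intervals as bars. The share of Fos was 25.2% in Dox (-) and 7.57% in Dox (+), and that of Fosl1 8.35% and 36.0%.

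Fosl1, on chromosome 19 (5447547 to 5455946, plus strand), encodes Fra-1, a Fos protein without the transactivation domain of Fos that is known from migrating and transformed cells. Its level was 17.5 RPKM in MEF, 23.5 in Dox (-) and 111 in Dox (+). Dox (+) stood clear of both other libraries, which were close to each other by this level only. The level is that of exon 3 in MEF and of exon 4 in Dox (-) and Dox (+). From MEF to Dox (-), exon 1 was 3.41-fold (1.96 to 6.25) higher and exon 2 was 2.16-fold higher. Exon 3 did not differ between them beyond counting error, with a ratio of 1.16 (0.863 to 1.58). On the exon with the most reads, 724, 1116 and 5164 reads were recovered, a fold of 4.73 (4.44 to 5.05) from Dox (-) to Dox (+) and of 1.54 (1.40 to 1.69) from MEF to Dox (-). Its log2 fold change from Dox (-) to Dox (+), 2.20, ranked 153 from the top among 13307 genes.

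Each exon of Fosl1 was higher in Dox (+). Exon 1 held 17, 58 and 355 reads in MEF, Dox (-) and Dox (+), a fold of 6.26 (4.73 to 8.41) from Dox (-) to Dox (+). The folds of exons 2, 3 and 4 were 5.51, 5.31 and 4.73, so the difference ran along the whole gene and was largest at the 5′ end. The log2 ratio of Dox (+) to Dox (-) at the last exon minus that at the first was -0.41, near the -0.43 of all genes. Exons 3 and 4 are overlapped on the other strand by Ccdc85b, whose listed exon was at 2.92, 2.23 and 6.90 RPKM, and whether strand was used in counting is not given in the sources used here. Exons 1 and 2 do not overlap it. When the ratio of Dox (+) to Dox (-) was rescaled so that the median gene did not change, Fosl1 stood at 4.05-fold, still called. With all libraries rescaled to MEF it stood at 3.96-fold, just under the threshold.

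**Figure D3:**
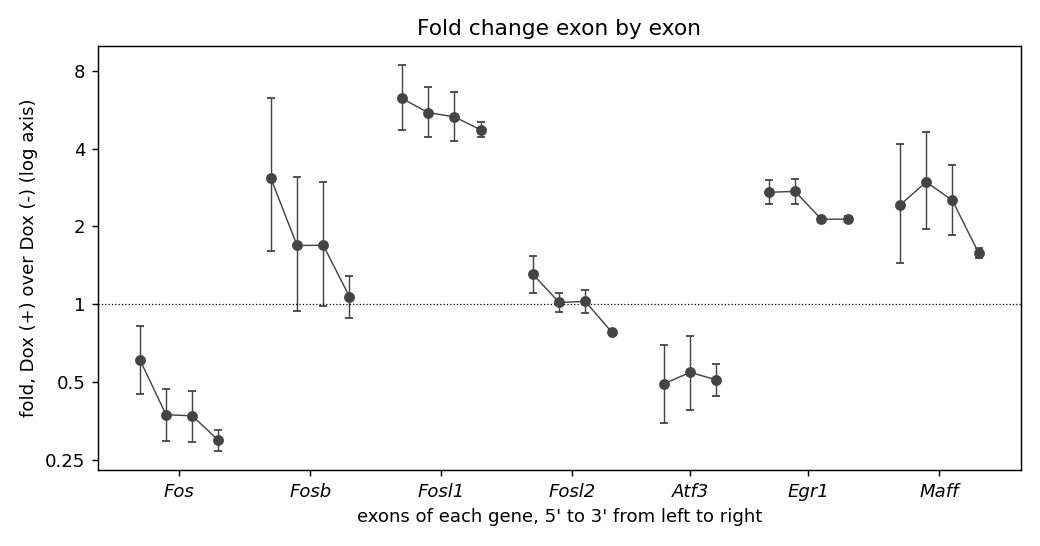
Ratio of Dox (+) to Dox (-) for each listed exon of the factors with several exons, on a log axis, ordered 5′ to 3′, with 95% counting intervals and with exons at or under 3 reads in a library left out. All Fosl1 and Egr1 exons lay above 1 and all Fos and Atf3 exons below 1, while Fosl2 fell from 1.30 at exon 1 to 0.78 at exon 4. The plotted Egr1 exons overlap and share reads.

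Fos, the founding member of the family, lies on chromosome 12 (85473890 to 85477273, plus strand). Its level was 25.1 RPKM in MEF, 61.5 in Dox (-) and 22.7 in Dox (+), so that Dox (-) stood above the other libraries. The exon with the most reads, exon 4, held 591, 1941 and 564 reads. That exon was 3.28-fold (2.99 to 3.61) higher in Dox (-) than in MEF and 3.37-fold (3.06 to 3.70) lower in Dox (+) than in Dox (-). Dox (+) and MEF did not differ beyond counting error there, with a ratio of 0.98 (0.87 to 1.10). The highest exon, exon 3, was 2.71-fold lower in Dox (+), and the log2 fold change of -1.40 ranked 1005 from the bottom of 13307 genes. All 4 exons were lower in Dox (+) than in Dox (-), by 1.64-fold at exon 1 (1.21 to 2.23), where 119 and 71 reads were recovered, and by 2.68-fold, 2.71-fold and 3.37-fold at exons 2 to 4. The difference of the log2 ratio between last and first exon, -1.04, was below that of most genes, 11.2% of genes having a lower one.

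Fos was highest in Dox (-), as were the macrophage markers and, apart from Thy1, the fibroblast markers. All 8 macrophage markers were called lower in Dox (+) than in Dox (-), with a median log2 fold change of -4.93, and all 8 were called higher in Dox (-) than in MEF, with a median of 6.15. Macrophages are known to express Fos, Atf3, Maff and Junb as fibroblasts do. Atf3 was highest in Dox (-) as Fos was, whereas Maff and Junb were highest in Dox (+). The part of macrophage RNA in the levels of these factors was not tested.

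Fosl2, on chromosome 5 (32135801 to 32157842, plus strand), encodes Fra-2 and gave the highest level of the family by the highest exon, 69.3 RPKM in MEF, 157 in Dox (-) and 161 in Dox (+). By the exon with the most reads it was first in MEF and Dox (-), but in Dox (+) it stood at 63.5 RPKM against 111 for Fosl1. MEF was the low library and the knock-in libraries lay together, with a ratio of 1.02 (0.925 to 1.13) between them on exon 3. The long last exon of 5172 bp gave other ratios. It held 15413, 18964 and 14460 reads, 1.28-fold (1.25 to 1.31) lower in Dox (+) than in Dox (-) and with a ratio of only 0.96 (0.94 to 0.98) between Dox (+) and MEF. As a log2 fold change, Dox (+) against Dox (-) gave 0.03 by the highest exon, -0.35 by the exon with the most reads and -0.19 after rescaling to the median gene, so its direction flipped. Against MEF, Dox (+) gave 1.21 by the highest exon and -0.06 by the exon with the most reads.

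The last exon of Fosl2 had 0.955 (0.857 to 1.07) of the RPKM of exon 3 in MEF, 0.518 (0.482 to 0.557) in Dox (-) and 0.394 (0.367 to 0.424) in Dox (+). It declined from library to library with no overlap of the intervals. The corresponding ratio of Fosl1 was 0.872, 1.15 and 1.03, and that of Fos 0.359, 0.481 and 0.387, neither with such a decline. Between Dox (-) and MEF, 8.16% of genes had a lower difference between last and first exon than the -1.19 of Fosl2. The part of the difference in coverage between libraries, and that of transcript ends, was not tested.

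Fosb, on chromosome 7 (19302696 to 19310051, minus strand), is a serum response gene of the same family and was the lowest of the 10 factors. Its level was 1.65 RPKM in MEF, 4.73 in Dox (-) and 8.0 in Dox (+), under 10 RPKM throughout. The last exon held 79, 225 and 235 reads. Dox (-) exceeded MEF there by 2.85-fold (2.19 to 3.73), and Dox (+) did not differ from Dox (-) beyond counting error, with a ratio of 1.07 (0.886 to 1.29). Exon 1 held 0, 13 and 39 reads, a ratio of 3.07 (1.60 to 6.26) from Dox (-) to Dox (+) and at least 4.33-fold higher in Dox (-) than in MEF against a floor of 3 reads.

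Of the Jun family, each listed as a single exon, Jun and Junb stood in the order MEF, Dox (-), Dox (+) from low to high, and Jund in the reverse order. Jun, the best known partner of Fos proteins, lies on chromosome 4 (95049034 to 95052222, minus strand) and was at 13.5, 27.7 and 37.1 RPKM. It was 2.05-fold (1.94 to 2.16) higher in Dox (-) than in MEF and 1.34-fold (1.29 to 1.40) higher in Dox (+) than in Dox (-). The first difference was the larger of the pair. Junb, on chromosome 8 (84974484 to 84978718, minus strand), a weaker activator that can oppose Jun, was at 5.25, 13.5 and 17.0 RPKM. Its ratios were 2.56 (2.29 to 2.87) and 1.27 (1.17 to 1.37) in the same order, the first above that of Jun and the second with an interval that overlaps it. From Dox (-) to Dox (+) the log2 fold changes of Jun and Junb were 0.41 and 0.32 as deposited. After rescaling to the median gene they were 0.19 and 0.11. Jund, on chromosome 8 (70698949 to 70700616, plus strand), is the member least dependent on growth signals. It was at 12.9, 11.4 and 9.31 RPKM, 1.13-fold (1.03 to 1.24) lower in Dox (-) than in MEF and 1.23-fold (1.11 to 1.36) lower in Dox (+) than in Dox (-).

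Summed over the 3 Jun genes the level was 31.7 RPKM in MEF, 52.6 in Dox (-) and 63.5 in Dox (+). Jund made up 40.6%, 21.7% and 14.7% of it, and Jun 42.8%, 52.7% and 58.5%. Jun and Jund were thus near parity in MEF, and Jun was the main Jun transcript in both knock-in libraries. Junb took 16.6%, 25.6% and 26.9%. On the other strand Jun is overlapped by Junos, which had no listed exon, and Jund by Gm11175 at 2.37, 2.13 and 2.13 RPKM. The summed level of the 4 Fos family genes was 113.6, 247 and 303 RPKM, higher than that of the Jun genes in each library.

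Atf3, a stress-induced factor that often represses, lies on chromosome 1 (191170296 to 191218039, minus strand). Its level was 14.4 RPKM in MEF, 22.4 in Dox (-) and 12.2 in Dox (+), the same order as Fos. On the exon with the most reads, 413, 615 and 306 reads were recovered. Dox (-) was 1.49-fold (1.31 to 1.69) above MEF, and Dox (+) 1.97-fold (1.71 to 2.26) below Dox (-) and 1.32-fold (1.14 to 1.53) below MEF. Exons 2, 3 and 4 were lower in Dox (+) than in Dox (-) by 2.03-fold, 1.84-fold and 1.97-fold, nearly alike along the gene. Exon 1 held 4, 14 and 0 reads, at least 4.56-fold lower in Dox (+) against the floor of 3 reads.

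Egr1, on chromosome 18 (34859823 to 34864984, plus strand), was at 53.6 RPKM in MEF, 77.5 in Dox (-) and 165 in Dox (+). The 3 libraries stood in this order with no overlap of counting intervals. Its last exon held 6011, 8691 and 18115 reads, 2.13-fold (2.08 to 2.19) more in Dox (+) than in Dox (-) and 1.45-fold (1.40 to 1.49) more in Dox (-) than in MEF. As a log2 fold change, Dox (+) against Dox (-) gave 1.08 as deposited and 0.86 after rescaling to the median gene. With all libraries rescaled to MEF it gave 0.83, so both rescaled values were under 2-fold. The exons upstream with more than 3 reads in each library gave larger ratios, and they overlap each other. The first exon of Egr1-201 held 214, 454 and 1203 reads, 2.71-fold (2.43 to 3.03) more in Dox (+) than in Dox (-). It contains exon 2 of Egr1-202, which held 213, 447 and 1194 reads, so nearly all of these reads are shared.

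Maff, on chromosome 15 (79346621 to 79359076, plus strand), encodes a small Maf protein without a transactivation domain. Its level was 20.1 RPKM in MEF, 43.4 in Dox (-) and 68.5 in Dox (+), on a last exon of 1493, 3225 and 4982 reads. The steps were of 2.16-fold (2.03 to 2.30) from MEF to Dox (-) and 1.58-fold (1.51 to 1.65) from Dox (-) to Dox (+). Its upstream exons gave larger ratios from Dox (-) to Dox (+), between 2.42 and 2.97. The alternative first exons behaved differently from MEF to Dox (-). That of Maff-201 had 5, 22 and 52 reads and that of Maff-202 had 26, 31 and 90 reads, so the first was 4.40-fold (1.63 to 14.9) higher in Dox (-) than in MEF and the second 1.19-fold (0.685 to 2.09).

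Promoters of 250 bases before to 50 after the start, from RefSeq on GRCm38.p6, were taken for 8 of the 10 factors in 10 windows. No window of Fosl1 or Egr1 was searched, so the counts below do not cover them. Exact matches were searched on both strands for the CArG box of serum response factor, the cyclic AMP response element TGACGTCA, the AP-1 element TGACTCA, and the E boxes CACGTG and CATGTG to which MITF is known to bind. Of 32851 promoters of the same length, 1.63%, 1.79%, 5.20%, 7.15% and 14.2% held them in this order. The factors with a match were 0, 1, 0, 1 and 1 of 8, in each case Maff. Elements outside these short windows, or with a variant sequence, were not searched, so a count of 0 does not show that a gene lacks the element. The Jund window, 70697489 to 70697788, ends before the M21 start of Jund at 70698949. One Maff window is shown because it held both a CACGTG, 191 bases before the start, and a TGACGTCA, 29 bases before it, both in capitals, ahead of the Maff-201 first exon whose reads are given above.

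Maff, chr15:79347270-79347569, plus strand: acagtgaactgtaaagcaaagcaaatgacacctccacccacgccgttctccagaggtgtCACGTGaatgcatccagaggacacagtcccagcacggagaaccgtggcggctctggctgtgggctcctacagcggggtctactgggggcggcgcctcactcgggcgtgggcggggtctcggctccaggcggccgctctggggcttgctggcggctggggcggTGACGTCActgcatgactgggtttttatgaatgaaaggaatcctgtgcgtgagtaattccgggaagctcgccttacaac

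Another Maff window, starting at 79348152, held CATGTG 49 bases before its start. A match describes the letters of the window and no site of binding.

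From MEF to Dox (-), no factor was called at 4-fold, against 9.47% of 13234 genes. At 2-fold, 5 of the 9 factors above 10 RPKM were higher in Dox (-), namely Fos, Fosl2, Jun, Junb and Maff, against 17.3% of all genes, and 0 were lower, against 7.93%. The median log2 fold change of the 10 factors was 1.03, and that of all genes tested 0.01. All but Jund lay above 0, although Fosl2 was higher by only 1.23-fold on its exon of most reads. Without Dox, then, most of these transcripts were already more abundant in the knock-in library than in the library labelled MEF.

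From MEF to Dox (+), Fosl1 was again the one factor called, by 6.36-fold in level, against 9.95% of 12941 genes. The factors over 2-fold higher were Fosl1, Fosl2, Jun, Junb, Egr1 and Maff, 6 of 9 against 20.2% of all genes, Fosl2 losing this on its exon of most reads. None was over 2-fold lower, against 8.98%. The median was 1.46 for the 10 factors and 0.27 for all genes tested. Since the 3 comparisons share libraries, they are not independent of each other. The order MEF, Dox (-), Dox (+) from low to high held for 7 of the 10 factors by highest exon, Fosb and Fosl2 among them. It held for 26.4% of 13587 genes above 10 RPKM in any library, a set that leaves out Fosb. For Fosl2 it rested on 157 RPKM in Dox (-) against 161 in Dox (+). On its exon of most reads Dox (-) was the highest and Dox (+) the lowest. Fos and Atf3 had the order Dox (+), MEF, Dox (-), found in 8.55% of genes, and Jund the order Dox (+), Dox (-), MEF, found in 12.9%.

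Other immediate early genes were taken from a list of 39, of which 38 had listed exons. From Dox (-) to Dox (+), of 35 above 10 RPKM, 1 was called higher and 0 lower, beside 7.05% of all genes called, with a median log2 fold change of 0.12, below the 0.23 of all genes. The gene called was Tiparp, a target of the aryl hydrocarbon receptor, at 16.7, 26.5 and 110 RPKM. At 2-fold, 6 were higher and 0 lower, beside 10.8% and 11.1% of all genes. In Dox (-) against MEF, 3 of 33 were called, all higher, beside 9.47% of all genes, led by Egr2 at 2.39, 16.0 and 12.3 RPKM and the orphan receptor gene Nr4a3 at 1.37, 10.4 and 16.7 RPKM. In Dox (+) against MEF, 7 of 35 were called, all higher, beside 9.95% of all genes, led by Nr4a3 and Tiparp.

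Other leucine zipper partners of AP-1, a list of 26 genes, had a median log2 fold change of -0.03 from Dox (-) to Dox (+), below the 0.23 of all genes, and 0 of the 20 above 10 RPKM were called higher. Cebpa, a myeloid and adipocyte factor gene, was called higher in Dox (-) than in MEF, at 2.02, 12.7 and 6.06 RPKM in MEF, Dox (-) and Dox (+). Between MEF and Dox (+), 0 of 18 were called, beside 9.95% of all genes.

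A list of 22 AP-1 target genes, matrix protease genes among them, was also followed. From Dox (-) to Dox (+) its median log2 fold change was 0.84, with 9 of 21 over 2-fold higher and 1 over 2-fold lower, beside 10.8% and 11.1% of all genes. Hmga1, a chromatin architecture gene, was called higher at 294, 99.7 and 642 RPKM, and Mmp9, a gelatinase gene also made by macrophages, was called lower at 0.32, 27.1 and 4.81 RPKM. Against MEF, 8 of 21 were called in Dox (-), all higher, beside 9.47% of all genes called, led by the matrix protease genes Mmp1a at 0, 117 and 294 RPKM and Mmp3 at 1.07, 158 and 201 RPKM. In Dox (+) the number called against MEF was 13 of 20, all higher, beside 9.95% of all genes, and the median was 2.16. Between Dox (-) and Dox (+) the matrix protease genes of the list did not move together, Mmp1a and Mmp10 being over 2-fold higher, Mmp9 called lower, and Mmp3 and Mmp13 within 2-fold. Mmp10 and Mmp13 are named after their values were seen.

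A list of 30 genes that act upstream of AP-1, kinases and serum response factor partners among them, was followed too. In each of the 3 comparisons 0 of 28 were called. The shares of all genes called were 7.05% from Dox (-) to Dox (+), 9.47% from MEF to Dox (-) and 9.95% from MEF to Dox (+). Over 2-fold higher were 8 of 28 from MEF to Dox (-), beside 17.3% of all genes. From MEF to Dox (+) 6 of 28 were, beside 20.2%. From Dox (-) to Dox (+) 2 were higher and 2 lower, beside 10.8% and 11.1%. Their medians were 0.25 from Dox (-) to Dox (+), 0.52 from MEF to Dox (-) and 0.65 from MEF to Dox (+). Heat shock genes, which respond to handling as several immediate early genes do, summed to 4152 RPKM in MEF, 3252 in Dox (-) and 7395 in Dox (+). From Dox (-) to Dox (+) all 8 were higher, 5 of them over 2-fold, beside 10.8% of all genes, and the median was 1.16. Of the 8, 1 was called, beside 7.05% of all genes, namely Hspa1a at 2.84, 3.02 and 16.9 RPKM. From MEF to Dox (-) 0 of 6 were called, beside 9.47% of all genes, with a median of 0.07. From MEF to Dox (+) 2 of 8 were called, Hspa1a and Hspa1b, beside 9.95% of all genes. The part of handling or heat shock in the levels of Fosl1 and Egr1 was not tested.

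**Figure D4:**
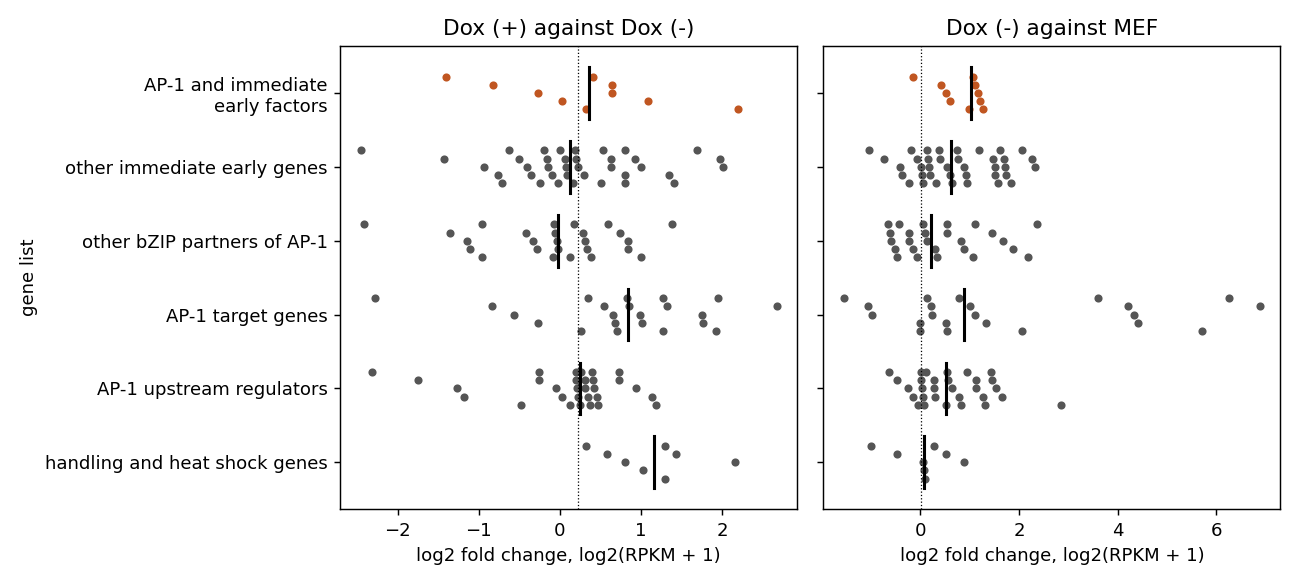
Log2 fold change, on the log2(RPKM + 1) scale, of each gene of the 10 factors and of 5 lists, from Dox (-) to Dox (+) and from MEF to Dox (-), with black bars at list medians and dotted lines at the median of all genes tested. The median of the factors was 0.36 and 1.03 in the 2 comparisons, against 0.23 and 0.01 for all genes, and the sign of Fosl2 in the first flipped with the exon used or after rescaling.

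The genes closest to 3 of the factors across the 3 libraries were found by the distance between centred log2 profiles, over 13587 genes. With only 3 points this is a description of likeness. Fosl1 was nearest to Bhlhe40, a basic helix-loop-helix repressor gene, at 95.9, 129 and 553 RPKM, then to the glucose transporter gene Slc2a1 at 136, 198 and 796 RPKM and to the bradykinin receptor gene Bdkrb2 at 1.07, 2.14 and 11.8 RPKM. All 3 were highest in Dox (+), with a smaller step from MEF to Dox (-), as Fosl1 was. Fosb was nearest to Ass1, an enzyme gene of arginine synthesis, at 61.4, 133.9 and 212 RPKM, followed by the predicted genes Gm16016 and Gm26603. Maff was nearest to Slc35f6 at 65.8, 140 and 221 RPKM, then to the adaptor gene Sh2b3 and to Wdfy1. The profiles near Fosb and Maff were likewise lowest in MEF and highest in Dox (+), with a larger step from MEF to Dox (-) than that of Fosl1 by highest exon. The profile of Fosb itself rests on an exon of 8, 23 and 38 reads. On its exon of most reads the ratio of Dox (+) to Dox (-) was 1.07 (0.886 to 1.29).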

How the data were processed

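RNA was sequenced from MEF, Dox (-), Dox (+) and melanocytes, with 1 library per condition. Per the labels the authors used a poly(A) selecting TruSeq kit, TopHat2 2.0.10 and bcl2fastq 2.17.1.14, the mm10 build and bedtools, and deposited RPKM values per exon. Strand use in counting is not given in the sources used here. Columns were assigned by name, 1 column that matched no library was not used, and the melanocytes were not analysed here. No p-values were computed.

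Exons were matched to GENCODE M21 (228132 of 234718, with 6586 unmatched). Reads were recovered with a whole-number divisor searched between 20000000 and 80000000 reads, and 97.2%, 97.0% and 96.9% of values below 200 reads in MEF, Dox (-) and Dox (+) came out whole within 0.02 reads. Of the 32 exons of the factors 10 did not, where the authors' exon length differs from M21, namely exons 1 and 4 of Fosb, Fosl1 and Fosl2, the exons of Junb and Jund and the first exons of Maff, so their reads are approximate. Genes were called above 10 RPKM in at least 1 library and 4-fold, without a pseudocount. Log2 fold changes used a pseudocount of 1 RPKM. A library at or under 3 reads was set to a floor of 3. Comparison of 5′ and 3′ exons, in genes with 3 or more exons of at least 20 reads, was chosen after seeing the data.

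The factors and the lists (other immediate early genes, leucine zipper partners, AP-1 targets, upstream regulators, heat shock genes and cell type markers) were chosen with earlier results of these data known. Named were all 10 factors, up to 2 genes with the largest rise and fall among those called in each list, the 3 nearest profiles of the 3 factors with the widest range, and Mitf. Alternatives changed the expression and fold thresholds, pseudocount, exon choice, exon length (at least 100 bp) and scaling. Some items of the lists and sequences are not reported here. The steps were tested on simulated data. Python 3.11.15, pandas 2.3.3, NumPy 2.4.6, SciPy 1.17.1 and matplotlib 3.10.9 were used.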

Additional observations from a re-analysis of the deposited data

How the results depend on the processing

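The count of factors called was recomputed under 10 alternatives. From Dox (-) to Dox (+) it was 1 as reported, 3 at 2-fold, 0 at 8-fold and 0 with all libraries rescaled to MEF, an alternative chosen after seeing the data. From MEF to Dox (-) it was 0, and 5 at 2-fold. From MEF to Dox (+) it was 1, 2 at a threshold of 1 RPKM, where Fosb joined Fosl1, 6 at 2-fold and 0 at 8-fold. These moves follow from the thresholds and the scale themselves. The remaining alternatives gave the same counts. Of 150 recomputed log2 fold changes of the factors, 59 moved beyond counting error and 4 changed sign, all of Fosl2, which from Dox (-) to Dox (+) went from 0.03 to -0.35 with the exon of most reads, to -0.19 after rescaling to the median gene and to -0.22 after rescaling to MEF, and from MEF to Dox (+) from 1.21 to -0.06 with the exon of most reads. The cause was not tested. No paired analysis was possible because each condition had 1 library. The comparisons with PMel and their alternatives were not run, since no column was matched to that library by name. Depth limits Fosb, the first exons of Atf3 and Maff, and the shares on exon 3.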

Other observations

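Other marker lists gave further values. The 4 endothelial markers summed to 9.37 RPKM in MEF, 14.9 in Dox (-) and 4.94 in Dox (+). The 4 epithelial markers summed to 56.4, 6.12 and 28.7 RPKM, with 2, 0 and 1 of the 4 above 10 RPKM. The 8 housekeeping genes had a median log2 fold change of 0.54 from Dox (-) to Dox (+), -0.37 from MEF to Dox (-) and 0.46 from MEF to Dox (+). In each of these comparisons 0 of the 8 were called, beside 7.05%, 9.47% and 9.95% of all genes in the same order. From Dox (-) to Dox (+) 2 of the 8 were over 2-fold higher, beside 10.8% of all genes. They were Gapdh at 2.74-fold and Rpl13a at 2.20-fold, against 2.13-fold for Egr1.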
